A study of Homo sapiens with 2 samples.

Results

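Binding of TCF7L1 was examined at 10 genes that set the pace of the G1 phase: the D-type cyclin genes CCND1, CCND2 and CCND3, the kinase genes CDK4 and CDK6, and the genes of the CDK inhibitors CDKN1A, CDKN1B, CDKN1C, CDKN2A and CDKN2B. The genes were taken by name from the 20046 protein-coding genes of GENCODE release 44. Each was given every summit, the point of a called region with the most stacked reads, that lay inside the gene or within 100 kb of the transcription start site (TSS) of any of its transcripts. The data came from HCT116 cells, an established colon adenocarcinoma line. All cells carried the shRNA shTCF7L1-2 against the endogenous TCF7L1 transcript and a pCW57.1 lentiviral plasmid induced with 1 µg/ml doxycycline. In the TCF7L1 group the plasmid expressed FLAG-tagged TCF7L1, and in the TCF7L1-MUT group it expressed the same protein with point mutations in its DNA-binding domain. The bound protein was therefore exogenous. The lines were stable under puromycin, and the sources used here do not say whether they were pools or clones. Binding was measured by ChIP-seq, in which chromatin is precipitated with an antibody, here against FLAG, and its DNA is sequenced. With 1 sample per group there was no replicate, so no p-value was computed and differences describe these 2 libraries. Region lists hold no expression values, so the cell identity was not checked against marker genes here.

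D-type cyclins are made in response to growth signals. They bind CDK4 or CDK6, and the active complexes phosphorylate the retinoblastoma protein, which releases E2F factors and lets cells enter S phase. The INK4 inhibitors, encoded by CDKN2A, CDKN2B and their relatives, bind CDK4 and CDK6 directly, whereas the CIP/KIP inhibitors p21 (CDKN1A), p27 (CDKN1B) and p57 (CDKN1C) act on cyclin-CDK complexes more widely. In the intestine this step is coupled to Wnt signaling, and CCND1 is a long-studied Wnt/β-catenin target gene with a TCF element close to its start. TCF7L1 is a TCF/LEF factor that acts mainly as a repressor.

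The TCF7L1 list held 3762 summits and the TCF7L1-MUT list 224. TCF7L1 summits were found at 5 of the 10 genes (CCND1, CDK6, CDKN1B, CDKN2A and CDKN2B), and TCF7L1-MUT summits at 0. By the same rule 23.1% of all protein-coding genes had a TCF7L1 summit and 0.803% had a TCF7L1-MUT summit. The TCF7L1-MUT count of 0 is thus also what most genes showed. The 5 genes had 5 summits between them, because CDK6 had 2 and CDKN2A and CDKN2B, which are neighbours on chromosome 9, shared 1. None of the 5 regions overlapped a TCF7L1-MUT region by 1 bp or more. The paper counted most of its TCF7L1 regions as unique to that list, so this is not particular to the 10 genes. By role, summits were found at 1 of 3 D-type cyclin genes, 1 of 2 kinase genes, 1 of 3 CIP/KIP genes and 2 of 2 INK4 genes.

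Summits within 2.5 kb of a TSS, here called promoter summits, were found at 2 of the 10 genes, CCND1 and CDK6, against 4.86% of all protein-coding genes. With a fold enrichment of at least 5, CDK6 was the only gene of the 10 left with a summit inside it or within 100 kb. The share of all protein-coding genes was then 11.6%, close to 1 of 10. For promoter summits at that setting CDK6 was also the only gene left, against 1.92% of all protein-coding genes. With 10 genes, a count of 1 does not tell whether they stood out. With a q-value of at most 0.001, CCND1, CDK6 and CDKN1B were left, against 19.97% of all protein-coding genes.

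**Figure D1:**
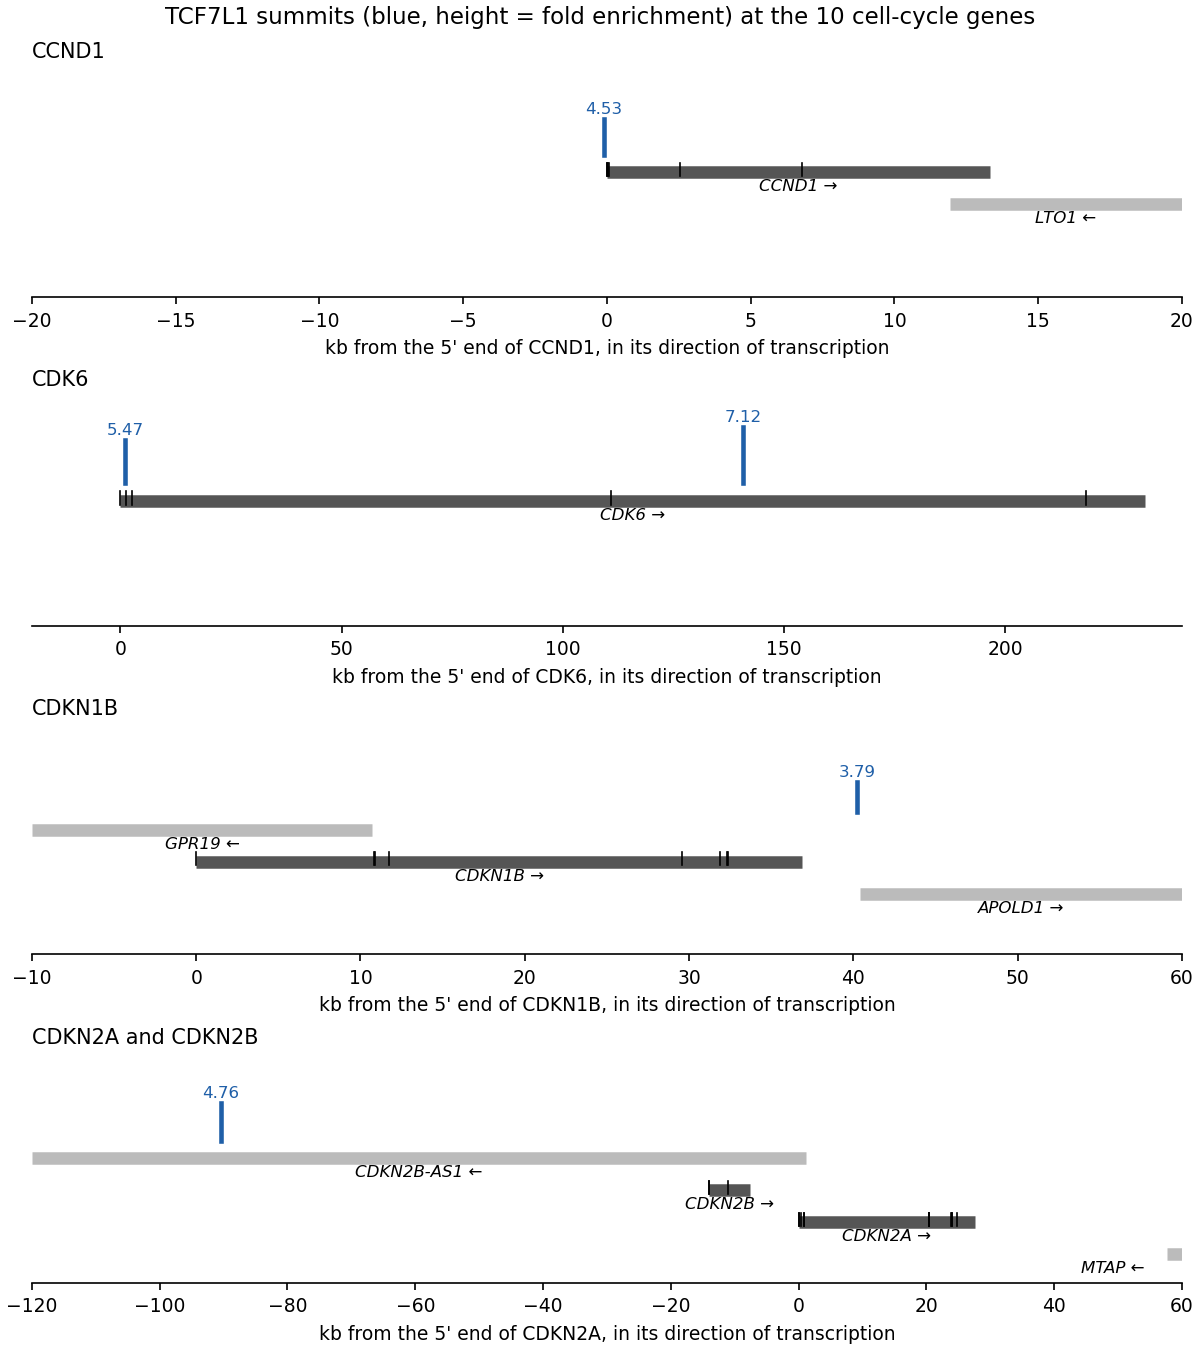
Position of TCF7L1 summits (blue lines, with height and label giving the fold enrichment) at CCND1, CDK6, CDKN1B and the CDKN2A and CDKN2B locus, in kb from the 5′ end of the gene named under each axis and in its direction of transcription. Dark bars are the genes studied, with ticks at their annotated TSSs, and light bars are neighbouring genes with arrows for their direction. The CCND1 summit and 1 CDK6 summit sat at the start of the gene, the CDKN1B summit at the start of APOLD1, and the CDKN2A and CDKN2B summit inside CDKN2B-AS1. No TCF7L1-MUT summit fell in these panels.

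CCND1 encodes cyclin D1. Its TCF7L1 region lay on chromosome 11 at chr11:69640911-69641220 (GRCh38/hg38), 310 bp wide, and overlapped the start of the gene. The summit was 98 bp upstream of the TSS at position 69641156 and 148 bp upstream of the start of the other protein-coding transcript. Fold enrichment, which divides the height of the read stack by the background around it, was 4.53, and the −log10 q-value was 6.43. These values correspond to 26 reads at the summit (exact Poisson 95% interval 17.0 to 38.1, counting error only) over a local background of 4.96. The region was of ordinary strength for this library: 35.9% of TCF7L1 summits had a fold enrichment as low or lower, as did 47.9% of the 969 promoter summits. It was the only TCF7L1 summit within 1 Mb of a CCND1 TSS. The nearest TCF7L1-MUT summit was 8.40 Mb away.

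The sequence bound by TCF factors was searched on both strands within 100 bp of each summit, as CTTTGNN in which each N is A or T. The CCND1 window held 1 match, CTTTGAT, on the strand of the gene. It began 18 bp downstream of the summit and spanned positions 80 to 74 bp upstream of the TSS. The same window held 2 matches to GGGCGG, the pattern of SP and KLF factors, between 20 and 9 bp upstream of the summit.

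CDK6 encodes a kinase partner of the D-type cyclins and was the only one of the 10 genes with more than 1 TCF7L1 summit, which was the case for 6.26% of protein-coding genes. It is also the longest of the 10, at 231653 bp, so that 418 kb were searched for it. Both summits were inside the gene, as was true of a TCF7L1 summit at 7.23% of protein-coding genes.

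The CDK6 promoter region, chr7:92835274-92835755, was 482 bp wide with its summit in an intron. The summit was 218 bp upstream of the start of a transcript without a defined coding sequence. It lay 1058 bp downstream of 1 protein-coding TSS and 1598 bp upstream of the other, so it was between the alternative starts of the gene. Fold enrichment was 5.47 and the −log10 q-value 8.83, with 27 reads (interval 17.8 to 39.3) over a background of 4.12. Of all TCF7L1 summits 64.8% were as weak or weaker by fold enrichment, as were 76.3% of promoter summits.

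The CDK6 intronic region, chr7:92695487-92696146, was 660 bp wide and the strongest of the 5. Its summit lay 140814 bp downstream of the 5′ end of CDK6 and 29951 bp downstream of the nearest CDK6 TSS, that of a retained-intron transcript. The nearest TSS of any gene was 6055 bp away, that of RNU6-10P, annotated as a small nuclear RNA gene. Fold enrichment was 7.12 and the −log10 q-value 16.6, with 37 reads (interval 26.1 to 51.0) over a background of 4.34. It ranked 347 among the 3762 TCF7L1 summits, and 90.8% had a fold enrichment as low or lower. Background was thus similar at both CDK6 summits, and their read intervals overlapped. The nearest TCF7L1-MUT summit was 8.12 Mb from a CDK6 TSS.

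Both CDK6 windows, 100 bp to either side of the summit, are shown because each held a TCF match. They are written 5′ to 3′ on the minus strand, which is the strand of the gene, with the match to CTTTGNN in capitals. The first is chr7:92835415-92835615 and the second chr7:92695659-92695859.
CDK6 promoter: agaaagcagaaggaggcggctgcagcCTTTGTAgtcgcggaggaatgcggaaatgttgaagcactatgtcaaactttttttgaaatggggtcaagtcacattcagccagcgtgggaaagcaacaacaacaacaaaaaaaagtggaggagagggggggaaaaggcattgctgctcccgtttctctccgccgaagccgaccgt
CDK6 intron: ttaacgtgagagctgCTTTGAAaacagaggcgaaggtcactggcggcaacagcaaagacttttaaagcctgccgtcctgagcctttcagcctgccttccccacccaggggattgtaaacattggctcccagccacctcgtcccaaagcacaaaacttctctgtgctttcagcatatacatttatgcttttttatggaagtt
The summit is base 101 of each. The match in the promoter window began 74 bp upstream of the summit and that in the intronic window 85 bp upstream. A second CTTTGAA, on the opposite strand, lay outside the intronic window at 154 to 148 bp upstream. The intronic window also held the forkhead pattern TNTTTAC (N is A or G) on the opposite strand, 13 to 19 bp downstream of the summit. None of the other 4 windows did, and 12.4% of 3730 TCF7L1 windows held it.

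CDKN1B encodes p27. Its TCF7L1 region, chr12:12725497-12725979, was 483 bp wide and lay outside the gene, with the summit 3382 bp past its 3′ end. The summit was 7890 bp downstream of the nearest CDKN1B TSS and 8383 bp downstream of the start of 2 of its protein-coding transcripts. It was much closer to APOLD1, the next gene downstream, whose nearest TSS was 166 bp away. Under the distance used for promoters this was an APOLD1 promoter region and not a CDKN1B one. Fold enrichment was 3.79, the lowest of the 5, and only 12.5% of TCF7L1 summits were as low or lower. The −log10 q-value was 5.36, which 49.1% of TCF7L1 summits matched or fell below. There were 29 reads (interval 19.4 to 41.6) over a background of 6.91, the highest background of the 5 summits.

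The CDKN1B window (chr12:12725651-12725851, plus strand) held no match to CTTTGNN. It is shown because it held 2 matches, in capitals, to TTTNAN, a looser TCF pattern in which the first N is G or T and the second A or T. They lay to either side of the summit at base 101, in the run of T bases.
CDKN1B downstream: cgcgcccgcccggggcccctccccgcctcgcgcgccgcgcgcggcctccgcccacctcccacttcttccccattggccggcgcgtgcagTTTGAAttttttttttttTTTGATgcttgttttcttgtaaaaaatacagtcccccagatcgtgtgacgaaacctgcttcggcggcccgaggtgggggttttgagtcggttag

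CDKN2A encodes p16 and, from another reading frame, ARF, a regulator of p53, and CDKN2B encodes p15. The region they shared, chr9:22085427-22085853, was 427 bp wide and lay in an intron of CDKN2B-AS1, a long non-coding RNA gene that runs in the opposite direction. The summit was 76373 bp upstream of the CDKN2B TSS and 90377 bp upstream of the nearest CDKN2A TSS. The TSS of a CDKN2B-AS1 transcript, 26393 bp away, was the nearest of any gene. This was the least certain of the 5 regions, with a −log10 q-value of 2.77 that 13.6% of TCF7L1 summits matched or fell below. Fold enrichment was 4.76, and 42.8% of TCF7L1 summits were as low or lower, with 11 reads (interval 5.49 to 19.7) over a background of 1.52. Its window was also the only one of the 5 made mostly of repeated sequence: 57.9% of its 31-base words occurred more than once in the assembly, with a median of 5 copies, whereas every word of the other 4 windows was unique. It held no match to CTTTGNN within 100 bp of the summit, and the nearest, CTTTGAT on the opposite strand, lay 241 to 235 bp upstream. At a limit of 50 kb, or with only single-copy sequence, neither INK4 gene of the 10 had a summit.

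**Figure D2:**
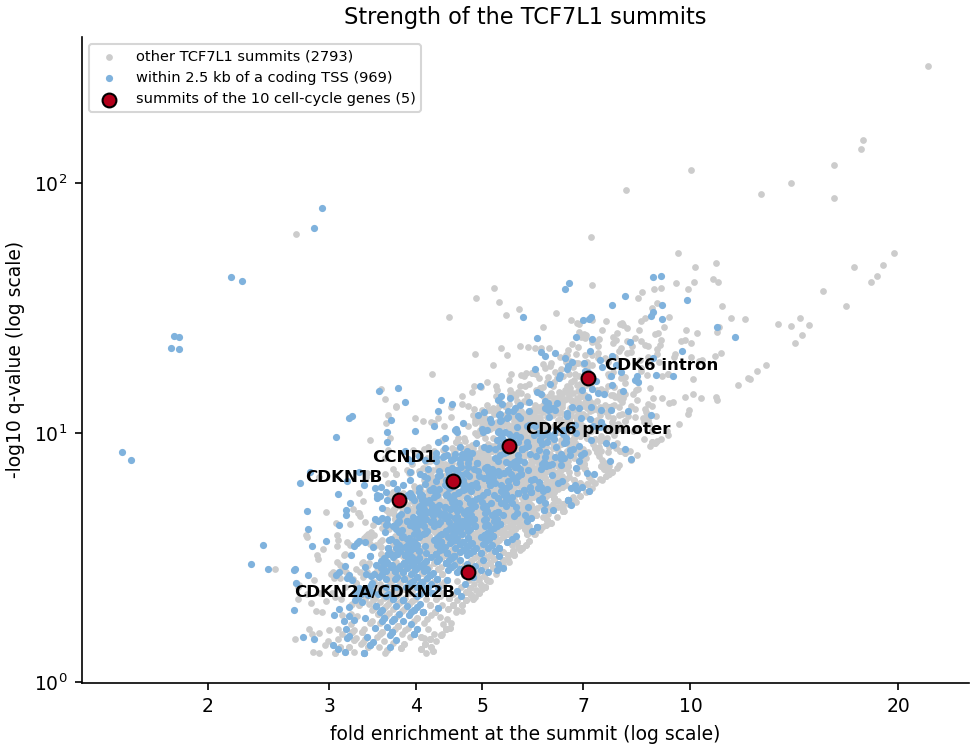
Fold enrichment (x axis, log scale) against −log10 q-value (y axis, log scale) of the 3762 TCF7L1 summits, with those within 2.5 kb of a protein-coding TSS in light blue and the 5 summits of the cell-cycle genes in red. The intronic CDK6 summit, at 7.12, was the furthest right of the 5, and the CDKN2A and CDKN2B summit, with a −log10 q-value of 2.77, was the lowest.

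The other 5 genes had no summit under the rule. The distance from a TSS to the nearest TCF7L1 summit was 171 kb for CCND3, the gene closest to the limit from outside, and 90.4 kb for CDKN2A, the closest from inside. It was 256 kb for CCND2 and 448 kb for CDKN1A, which encodes p21, a target of p53. The nearest summits were 982 kb from CDKN1C and 1064 kb from CDK4. CDK4 was the only one of the 10 with no TCF7L1 summit within 1 Mb of a TSS. Further out regions did occur around several of them: inside the gene or within 500 kb of a TSS CDKN1A had 4 summits, CCND2 had 3 and CCND3 had 3. CDKN1C and CDK4 had 0. Neither this count nor that within 1 Mb was made for all protein-coding genes. A gene without a listed region is one at which no region passed the peak caller's threshold, and weaker binding there was not detectable from these lists.

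Ordered by distance to the nearest TCF7L1 summit, CCND1 was closer than nearly all genes: 1.26% of 20033 protein-coding genes on chromosomes 1 to 22, X and Y had a summit as close. The figure was 2.07% for CDK6, 6.43% for CDKN1B, 19.1% for CDKN2B and 21.3% for CDKN2A. It was 32.3% for CCND3, 41.8% for CCND2, 58.3% for CDKN1A, 80.9% for CDKN1C and 82.8% for CDK4. The CDK6 figure used the TSS of a transcript without a defined coding sequence, 218 bp away. The nearest protein-coding CDK6 TSS was 1058 bp away. The CDKN1B summit lay closer to a TSS of APOLD1 than to any of CDKN1B. The D-type cyclin, kinase and CIP/KIP genes were thus spread widely, with CCND1 and CDK6 near one end and CDK4 near the other, whereas the neighbouring CDKN2A and CDKN2B, measured to the same summit, lay close together. The median distance was 131 kb for the 10 genes and 343 kb for all protein-coding genes. The median of the 10 lay between CDKN2A, at 90.4 kb, and CCND3, at 171 kb. It thus rested on the summit shared by CDKN2A and CDKN2B, whose window was mostly repeated sequence. Neither gene had another TCF7L1 summit within 1 Mb of a TSS, and the median was not computed without that summit.

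**Figure D3:**
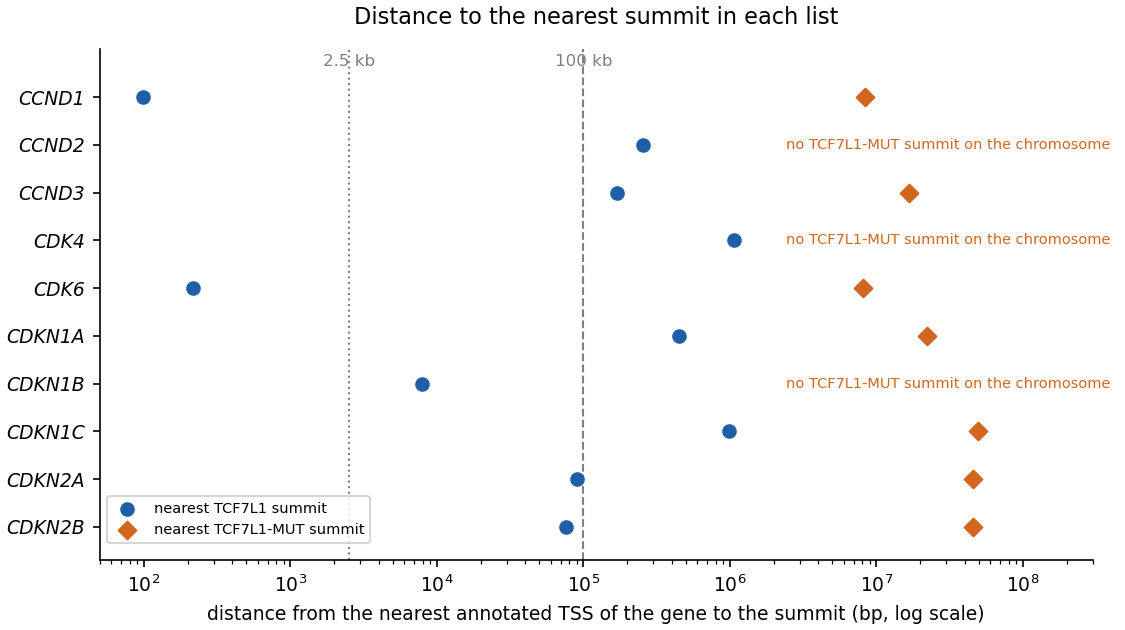
Distance in bp (log scale) from the nearest TSS of each of the 10 genes to the nearest summit of the TCF7L1 list (circles) and of the TCF7L1-MUT list (diamonds). Distances to TCF7L1 summits ran from 98 bp at CCND1 to 1064345 bp at CDK4, and the closest TCF7L1-MUT summit was 8122153 bp away, at CDK6.

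No TCF7L1-MUT summit lay within 1 Mb of any of the 10 genes. On the chromosomes that had any, the nearest was 8.12 to 49.4 Mb away. Chromosome 12, which carries CCND2, CDKN1B and CDK4, held 192 TCF7L1 summits and 0 TCF7L1-MUT summits. Only 145 of the 224 TCF7L1-MUT summits lay on chromosomes 1 to 22, X and Y, which hold 2938 Mb of known bases. Long distances to this list are thus not particular to the 10 genes. The share of all protein-coding genes with a TCF7L1-MUT summit within 1 Mb was not computed.

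The stretch of genome searched did not set the 10 genes apart from others. Its median span was 208 kb for them and 211 kb for protein-coding genes. Merged, the stretches covered 2.23 Mb and held 5 TCF7L1 summits, or 2.25 per Mb (exact Poisson 95% interval 0.729 to 5.24). The density was 1.45 per Mb around all protein-coding genes and 1.25 per Mb over chromosomes 1 to 22, X and Y, and both lay within the interval. The density around the 10 genes was 0.898 per Mb with a fold enrichment of at least 5, and 3.01 and 5.04 per Mb when the limit of 100 kb was lowered to 50 and 20 kb. Densities around all protein-coding genes were not computed at these settings, so 1.45 and 1.25 per Mb are no comparison for them.

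The share of genes with a summit was compared over distances from 1 to 100 kb of a TSS. Within 1 kb it was 2 of 10 genes against 3.87% of protein-coding genes, and within 10 kb it was 3 of 10 against 6.97%. The gene added was CDKN1B, whose summit lay 166 bp from an APOLD1 TSS. Within 50 kb it was still 3 of 10, against 14.9%, and within 100 kb 5 of 10, against 22.9% when summits inside a gene but further from its TSSs are not counted. With 10 genes, of which CDKN2A and CDKN2B shared a summit, each share moves in steps of 10%, and these genes were named with earlier results of the same lists known.

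**Figure D4:**
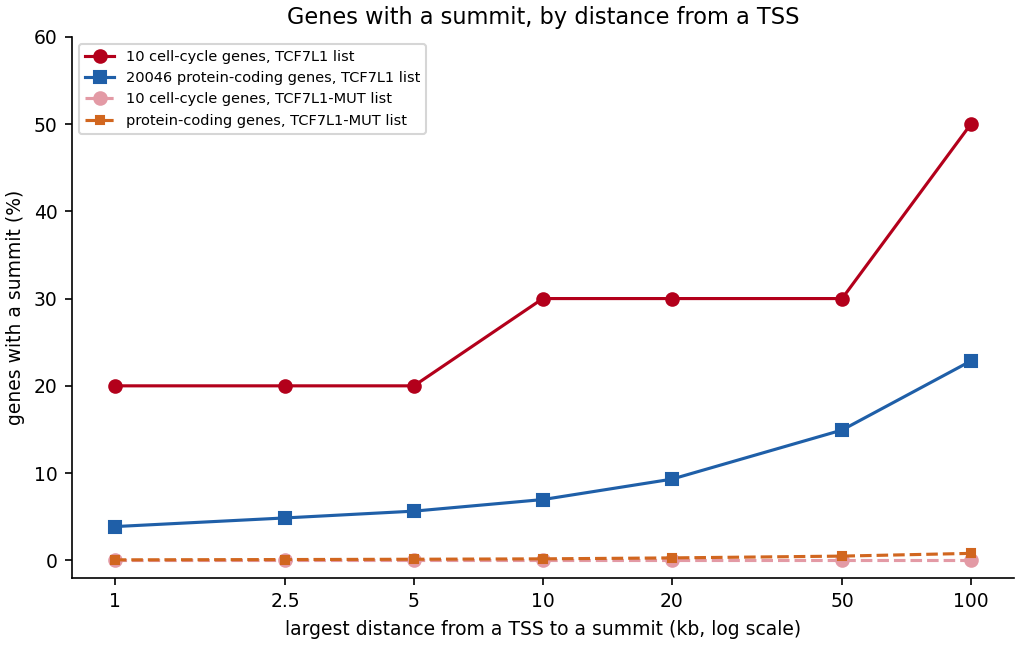
Percentage of genes with a summit (y axis) within a given distance of a TSS (x axis, kb, log scale) for the 10 cell-cycle genes (circles) and 20046 protein-coding genes (squares), in the TCF7L1 list (solid) and the TCF7L1-MUT list (dashed). The TCF7L1 line of the 10 genes rose from 20% at 1 kb to 50% at 100 kb, that of all genes from 3.87% to 22.9%, and the TCF7L1-MUT lines stayed below 1%.

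Over the 5 windows, CTTTGNN was present in 3 (CCND1 and both at CDK6), and in 26.6% of 3730 TCF7L1 windows. The looser TTTNAN was present in 4 of the 5 and in 53.2% of all. Each match to CTTTGNN that ends in GAA or GAT also holds a match to TTTNAN, so the counts are not separate. GGGCGG was present in 2 of the 5, at CCND1 and CDKN1B, and in 14.2% of all windows. Both lay near a protein-coding TSS, that of CCND1 or APOLD1, and 26.8% of windows at promoter summits held the pattern. The AP-1 pattern TGANTCA (N is C or G) and the GATA pattern NGATAN (first N A or T, second N A or G) were present in 0 of the 5, against 7.21% and 31.7% of all. GC content was highest in the CCND1 window, at 65.2%, followed by 60.7% at CDKN1B, 53.7% at CDKN2A and CDKN2B, and 50.7% and 48.3% at the CDK6 promoter and intron.

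**Figure D5:**
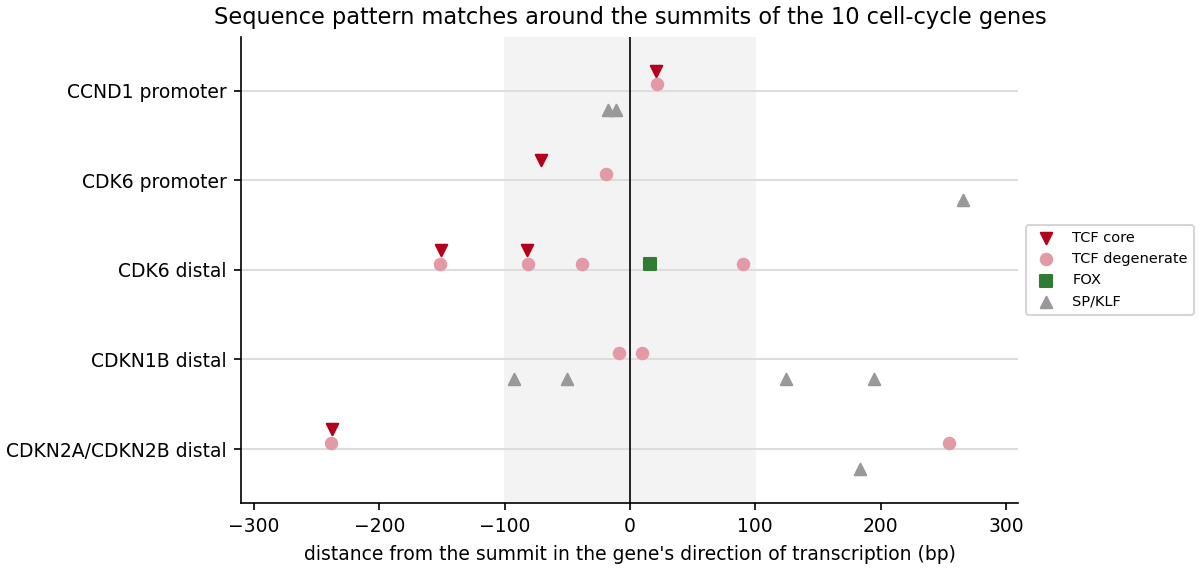
Centres of pattern matches within 300 bp of the 5 summits, in bp in the gene's direction of transcription, where 0 is the summit and the shaded band marks the 100 bp to either side in which matches were counted. Red triangles are CTTTGNN, pink circles TTTNAN, the green square the forkhead pattern and grey triangles GGGCGG, and the CDK6 intron is labelled CDK6 distal, CDKN1B and the CDKN2A and CDKN2B region likewise. CTTTGNN fell in the band at CCND1 and at both CDK6 summits.

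To see whether starts without a region also carried the pattern, RefSeq promoters (GRCh38.p14, from 250 bases before to 50 after each start) were searched. Of the 10 genes 7 matched, with 11 promoters, and CCND1, CCND2 and CDKN1C had no entry. CTTTGNN was present in 1 of the 11 promoters, at CCND3, where it reads CTTTGTA, and in 13.8% of 35116 promoters. GGGCGG was present in 8 of the 11, with at least 1 at each of the 7 genes, and in 45.0% of all promoters. CCND3 had a match and no TCF7L1 region, and the CDK6 matches above lay outside both of its RefSeq promoters.

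Other genes of the cell cycle, a list of 42 that holds further cyclins, kinases, INK4 genes, CDC25 phosphatases, retinoblastoma and E2F family members and licensing factors, were treated alike. TCF7L1 summits were found at 10 of the 42 (23.8%), close to the 23.1% of all protein-coding genes, and TCF7L1-MUT summits at 0. Of these 10 genes only CDKN2C, which encodes the INK4 inhibitor p18, had a promoter summit, 167 bp downstream of a TSS in a region at chr1:50969892-50970510. Its fold enrichment was 3.27 and its −log10 q-value 2.30. The next closest were at CDC25C, a phosphatase that activates CDK1, 16505 bp away with a fold enrichment of 5.42, and at E2F6, a repressive E2F, 17619 bp away with a fold enrichment of 4.82. At RBL2, a relative of the retinoblastoma gene, the summit was 49089 bp upstream. The other 6 were CCNA1, CCNG2, CDC25A, CKS1B, TFDP2 and MNAT1, with nearest summits 26832 to 85691 bp away.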

How the data were processed

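The authors trimmed reads with skewer, mapped them to GRCh38/hg38 with BWA (0.7.12) and called peaks per sample with MACS2 (2.1.0). Use of an input library, the q-value threshold and the handling of duplicates were not given in the sources used here. The deposited peak lists give a fold enrichment (a ratio, with a pseudocount of 1), −log10 p and −log10 q values, a score (the −log10 q-value times 10, cut to a whole number, not used) and the summit. The deposited summit lists matched them by name. Total depth was not analysed here. The paper reports similar numbers of clean reads for both libraries, and a lower share of reads in called regions for TCF7L1-MUT.

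Summits were assigned to genes with GENCODE 44, and coordinates are 1-based. The whole number of reads and the background that together give each deposited ratio and Poisson p-value were computed, to within 0.001 in −log10 p for 100% of TCF7L1 summits. Windows of 201 bp were read from hg38. Copies of their 31-base words were counted over 194 assembled sequences, and a region with at least 50% repeated words was called multi-copy. Python 3.11.15 was used, with scipy 1.17.1, and assignment, read numbers and pattern search were tested on simulated data. The genes and lists were chosen with earlier results of these data known. Named genes were the 10 genes, other cell-cycle genes with a promoter summit, and the gene nearest to each summit; the other cell-cycle genes named here were added after their values were seen. Alternatives covered thresholds, distances, which TSSs count, the region's edge, copies and windows.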

Additional observations from a re-analysis of the deposited data

How the results depend on the processing

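Alternatives gave 86 values for 11 results, of which 58 stayed within 1.5 times the reported count or within the interval of the reported share or density, and 28 moved further. The 5 genes with a TCF7L1 summit became 3 with a q-value of at most 0.001, at 50 kb, at 20 kb and in single-copy sequence, and 1 with a fold enrichment of at least 5, where 2 summits and 1 promoter gene were left. Which genes were left is given with the results. The number with a TCF7L1-MUT summit was 0 under every alternative run for it. The share of protein-coding genes with a TCF7L1 summit moved from 23.1% to 19.97% under the q-value threshold above, 11.6% under that on fold enrichment, 15.5% at 50 kb, 10.9% at 20 kb, 21.4% with the 5′ end of the gene, 21.8% with protein-coding transcripts and 19.6% in single-copy sequence. The promoter share moved from 4.86% to 3.98%, 1.92%, 3.41%, 4.31% and 4.49% under the same settings in that order, distances aside, and to 3.87% at 1 kb and 5.64% at 5 kb. Other cell-cycle genes with a summit numbered 4 with the stricter fold enrichment, 6 at 50 kb and 3 at 20 kb in place of 10, and those with a promoter summit 0 in place of 1 with either stricter threshold and with the 5′ end of the gene. CTTTGNN was within 50 bp of 1 of the 5 summits, that of CCND1, in place of 3 within 100 bp. Lower values under stricter thresholds and shorter distances follow from the settings themselves, which keep fewer summits. No paired analysis was possible because only 1 sample represented each protein, which also means that none could be dropped in turn. The reads behind a summit, 11 to 37 at these genes, limit how finely their strengths can be ranked.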
